A study of Homo sapiens with 8 samples.

Results

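The 57 genes described here encode the machinery of mitosis: the cyclin-dependent kinase switch, the spindle checkpoint, the kinetochore, the mitotic kinesins, cytokinesis proteins and condensin. They were listed by name, by their role in cell division. All 57 had a value in each of the 8 libraries and all 57 passed the filter on low values, out of 54174 gene symbols in the table and 9016 genes tested. The cells were 143B, an established human osteosarcoma line. In 4 control libraries they had been transfected with a vector plasmid (genotype label: control), and in 4 knockout libraries with a plasmid labelled NELL1KO (genotype label: NELL1 knockout). RNA of both groups was taken at 48 h. Both groups were transiently transfected with TransIT-LT1, and the labels name no clone and no step that selects transfected cells. The libraries were made from total RNA. The series title concerns NELL1, a secreted matrix protein, and the matrisome, and the mitotic genes were measured in the same libraries.

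Entry into mitosis depends on CDK1 bound to cyclin A or cyclin B, a kinase complex that the CDC25 phosphatases switch on. Kinetochores then assemble on centromeres that carry the histone variant CENPA, capture spindle microtubules, and hold back the anaphase promoting complex through the checkpoint until every chromosome is attached. Many of these genes are transcribed together late in the cycle. In quiescent or arrested cells the DREAM complex represses them through a promoter element called the CHR, and in G2 the B-MYB and FOXM1 factors activate them, often beside CCAAT boxes bound by NF-Y.

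Because the members are known as a co-transcribed class, their promoters were searched first for these elements. The RefSeq promoter window (GRCh38.p14, 250 bases before to 50 bases after the annotated start) was matched by symbol for 48 of 57 members. FOXM1, AURKA, TPX2, BUB3, TTK, UBE2C, BIRC5, CENPM and RACGAP1 had no entry. The CHR was searched as TTTGAA or TTCGAA and the NF-Y box as CCAAT, both on either strand. A CHR-type match was present in 35 of 48 member windows (72.9%), in 16.6% of all 27305 windows and in 11% of the 7423 windows of tested genes. Of 40 windows of S phase genes, 2 (5%) held one. CCAAT was present in 72.9% of the member windows, 35.7% of all windows and 52.5% of the S phase windows. Both elements were found in 27 member windows (56.2%), against 6.58% of all. In 30 of the 35 members with a CHR-type match, a match began within 60 bases of the start site. A match of letters is a description and not a binding site.

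The following stretches, read 5′ to 3′ on the gene's strand, show the elements in the 6 members that rose with the smallest adjusted p-values and had a CHR-type match. Capitals mark CHR-type and CCAAT matches on either strand, and they overlap in HMMR, where a CCAAT box on each strand shares bases. The stretch is 100 bases where the match lies before the start and 30 bases where it lies at or after it.
NUF2 (chr1:163321958-163321987, plus strand): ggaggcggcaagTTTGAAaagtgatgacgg
CENPN (chr16:81007205-81007234, plus strand): gcaATTGGtggcTTTGAAggcgcggcgagc
KIF20B (chr10:89701605-89701634, plus strand): ccgccattgTTTGAATTTGAAaacggtaac
KIF18A (chr11:28108157-28108256, minus strand): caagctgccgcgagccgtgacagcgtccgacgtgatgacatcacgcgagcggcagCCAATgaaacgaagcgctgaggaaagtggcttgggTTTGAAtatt
CDK1 (chr10:60778125-60778224, plus strand): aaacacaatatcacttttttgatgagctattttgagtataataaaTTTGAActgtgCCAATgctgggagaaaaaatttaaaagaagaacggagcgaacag
HMMR (chr5:163460532-163460631, plus strand): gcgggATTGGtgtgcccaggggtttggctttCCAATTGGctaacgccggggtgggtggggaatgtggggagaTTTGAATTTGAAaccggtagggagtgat
KIF20B and HMMR each carried 2 CHR-type matches directly beside each other. The windows of CENPK and NCAPH, which also rose, held CCAAT but no CHR-type match, which says only that these letters are not in that window.

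**Figure D1:**
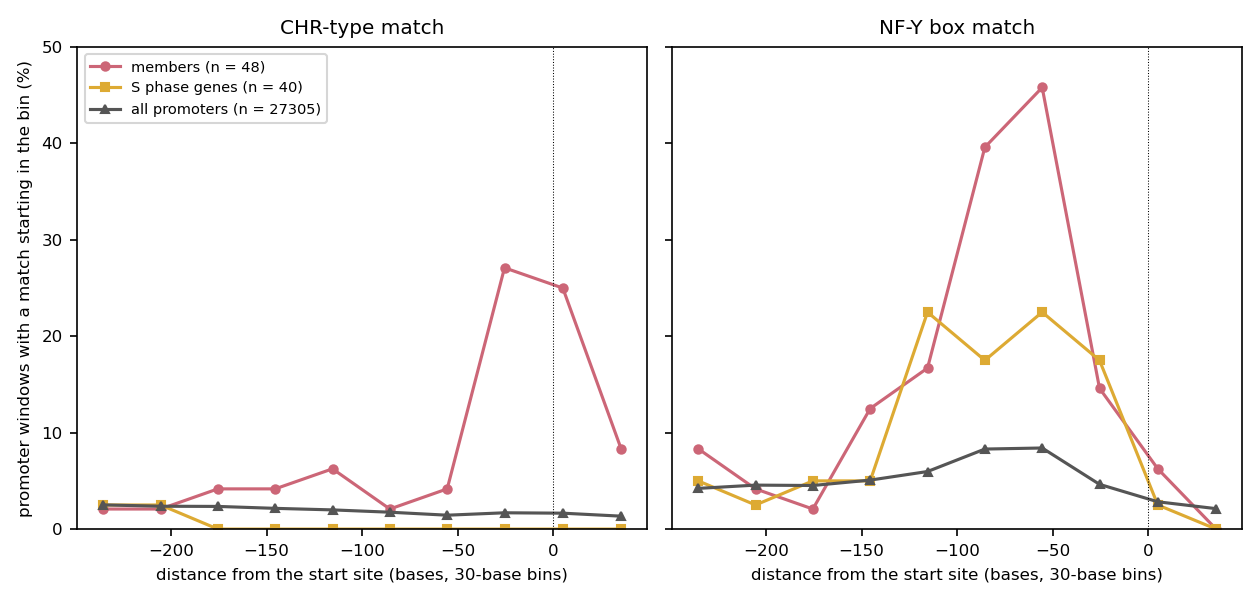
Position of CHR-type matches (left) and NF-Y box matches (right) in promoter windows: the x axis is the distance from the annotated start site in bases, in 30-base bins, and the y axis is the share of windows with a match that starts in the bin. CHR-type matches of the 48 members peak at 27.1% and 25% in the bins from -40 to -11 and from -10 to 20, where all 27305 promoters (triangles) are at 1.69% and 1.65% and the 40 S phase genes (squares) have none.

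The values are deposited log2 values that are already quantile normalized, so each library has the same distribution and a difference is relative to the rest of the transcriptome. The unit before the logarithm is not given in the sources used here, so levels were compared between libraries and not between genes. Between 14911 and 15171 genes had a value per library, and read depth is not known. NELL1 itself was low in both groups. Its values were -6.97, -6.97, -4.53 and -5.00 in control libraries 1 to 4, and -4.82, -5.87 and -6.96 in knockout libraries 1, 2 and 4, with knockout library 3 blank. The groups overlapped and the difference of -0.01 did not check the labels (exact two-sided permutation test, p = 1.00, smallest possible p = 0.0286). The knockout libraries fell into close pairs. Across tested genes the SD of the difference was 0.12 between knockout libraries 1 and 2 and 0.13 between 3 and 4, but 0.46 to 0.50 between these pairs. Control libraries 1 and 2 differed by an SD of 0.10 and control libraries 3 and 4 by 0.19, with control library 4 nearer to 2 (0.13) and 1 (0.15) than to 3. The design text calls the libraries biological replicates, but the labels do not say what a pair shares, and without counts it cannot be tested whether a pair agrees within sampling noise. Results are therefore also given for replicates 1 and 2 and replicates 3 and 4 apart. Of the mesenchymal and osteoblast markers, VIM was 10.19 to 10.87 and SPARC 5.23 to 6.15 over the 8 libraries, while SP7 was blank throughout and BGLAP had a value in 3. PTPRC and CD3E of leukocytes were blank in every library, CD14 and CSF1R reached -2.67 and -3.07, the 4 endothelial markers reached at most -3.31, and the epithelial marker EPCAM was 1.83 to 2.76. The summed linear level of the mesenchymal list, most of which is VIM alone, was 1810 to 1910 in controls and 1240 to 1690 in knockouts. In the epithelial list it was 5.37 to 6.73 and 3.70 to 6.82, in the leukocyte list 0.0927 to 0.161 and 0.0960 to 0.276, and in the endothelial list 0.0708 to 0.201 and 0.0959 to 0.172. Of the 8 mesenchymal markers 2 were tested and both were called. The part of these lists in the results below was not tested.

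Mitotic genes were more often higher than lower in the knockout libraries, by small amounts. In bulk RNA a larger share of dividing cells and more transcript per cell cannot be told apart. Over all 8 libraries 10 of 57 members rose and none fell (17.5% higher, against a background of 7.02% higher and 6.10% lower among the 9016 tested genes; limma, Benjamini-Hochberg adjusted p under 0.05). At an unadjusted p under 0.05 in limma, 20 were higher and 2 lower, against 1441 and 1234 of the 9016 tested genes. The risen genes were CENPK, CENPM, CENPN, NUF2 and SPC25 of the kinetochore, the kinesins KIF18A and KIF20B, the kinase CDK1, the spindle protein HMMR and the condensin subunit NCAPH. The median difference, knockout minus control, was 0.24 log2 units over the members and 0.01 over all tested genes, and 49 of 57 members lay above 0 (86.0%, against 51.3% of tested genes). Knockout values lay above all control values in 10 members (17.5%) and below all of them in none, with backgrounds of 12.5% and 10.4%. The calls depended on treating all 4 knockout libraries as independent. With each close knockout pair averaged only CENPK was called (background 0.488% higher and 0.710% lower). With replicates 1 and 2 and replicates 3 and 4 averaged in both groups limma called none (background 0% in either direction). In that fit 7 members had an unadjusted p under 0.05, all higher. The same held for 706 of the 9016 tested genes, 362 of them higher. Without control library 1, 2 or 4 the count was 3, 2 or 2, and without knockout library 3 it was 5.

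**Figure D2:**
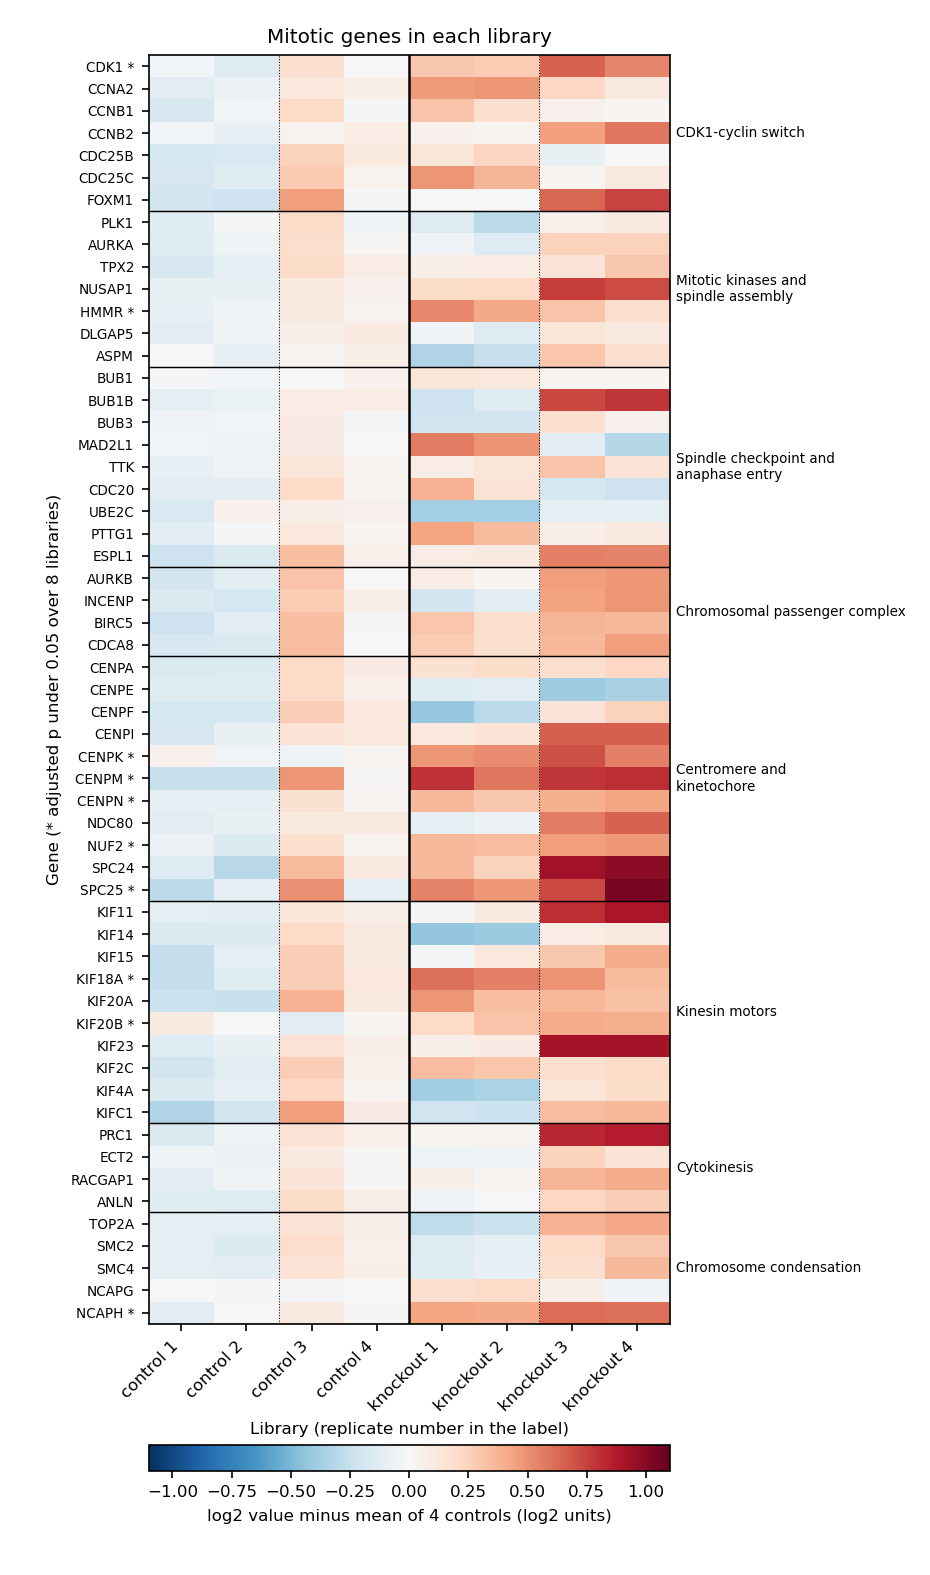
Each cell is a member's log2 value in a library minus its mean over the 4 controls (colour scale in log2 units); rows are genes by role, columns are libraries, and an asterisk marks the 10 genes called over 8 libraries. Knockout libraries 3 and 4 are the reddest columns, with 39 and 38 members above every control, against 22 and 17 in knockout libraries 1 and 2. Members below every control numbered 3 and 4 in knockout libraries 3 and 4, and 11 and 11 in knockout libraries 1 and 2. The matching counts over all tested genes were not computed, so these counts have no background and whether they are unusual was not tested.

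The kinetochore held the largest changes: 5 of its 11 members rose (45.5%, background 7.02%) and none fell, with a median difference of 0.39. CENPK, CENPM and CENPN belong to the inner kinetochore network that sits on CENPA chromatin. CENPK was 1.98, 1.90, 1.89 and 1.96 in control libraries 1 to 4 and 2.42, 2.45, 2.63 and 2.49 in knockout libraries 1 to 4. Every knockout value was above every control value, and the rise of 0.56 ± 0.07 (SE; limma adjusted p = 0.00294) is 1.48-fold. CENPM was 1.82, 1.82, 2.55 and 2.08 in the controls and 2.86, 2.66, 2.85 and 2.88 in the knockouts. Control library 3 was the highest control and still lay below the lowest knockout, for a rise of 0.75 ± 0.16 (SE; limma adjusted p = 0.0199). CENPN rose by 0.37 ± 0.08 (SE; limma adjusted p = 0.0186), from 2.86, 2.85, 3.12 and 2.98 to 3.31, 3.25, 3.34 and 3.39.

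NUF2 and SPC25 are subunits of the NDC80 complex, the outer kinetochore rod that binds microtubules. NUF2 was 2.95, 2.86, 3.19 and 3.05 in the controls and 3.37, 3.35, 3.47 and 3.49 in the knockouts, without overlap, a rise of 0.41 ± 0.08 (SE; limma adjusted p = 0.0173). SPC25 was 1.60, 1.79, 2.39 and 1.78 in the controls and 2.44, 2.37, 2.62 and 2.93 in the knockouts. Control library 3 overlapped knockout library 2, and the rise of 0.70 ± 0.19 (SE) passed narrowly (limma adjusted p = 0.0410). The other subunits of the complex did not pass: SPC24 differed by 0.63 ± 0.20 (SE; limma adjusted p = 0.0745) and NDC80 by 0.27 ± 0.18 (SE; limma adjusted p = 0.366). With the replicate number as a block SPC24 passed (limma adjusted p = 0.0188), as did CENPI (0.39, limma adjusted p = 0.126 without the block and 0.0417 with it). CENPE, a kinesin that carries chromosomes to the spindle equator, had the lowest difference of the whole list. Its values were 2.18, 2.18, 2.52 and 2.37 in the controls and 2.18, 2.19, 1.92 and 1.96 in the knockouts, a difference of -0.25 ± 0.10 (SE; limma adjusted p = 0.152). CENPA, the centromeric histone, and CENPF differed by 0.19 and -0.08.

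**Figure D3:**
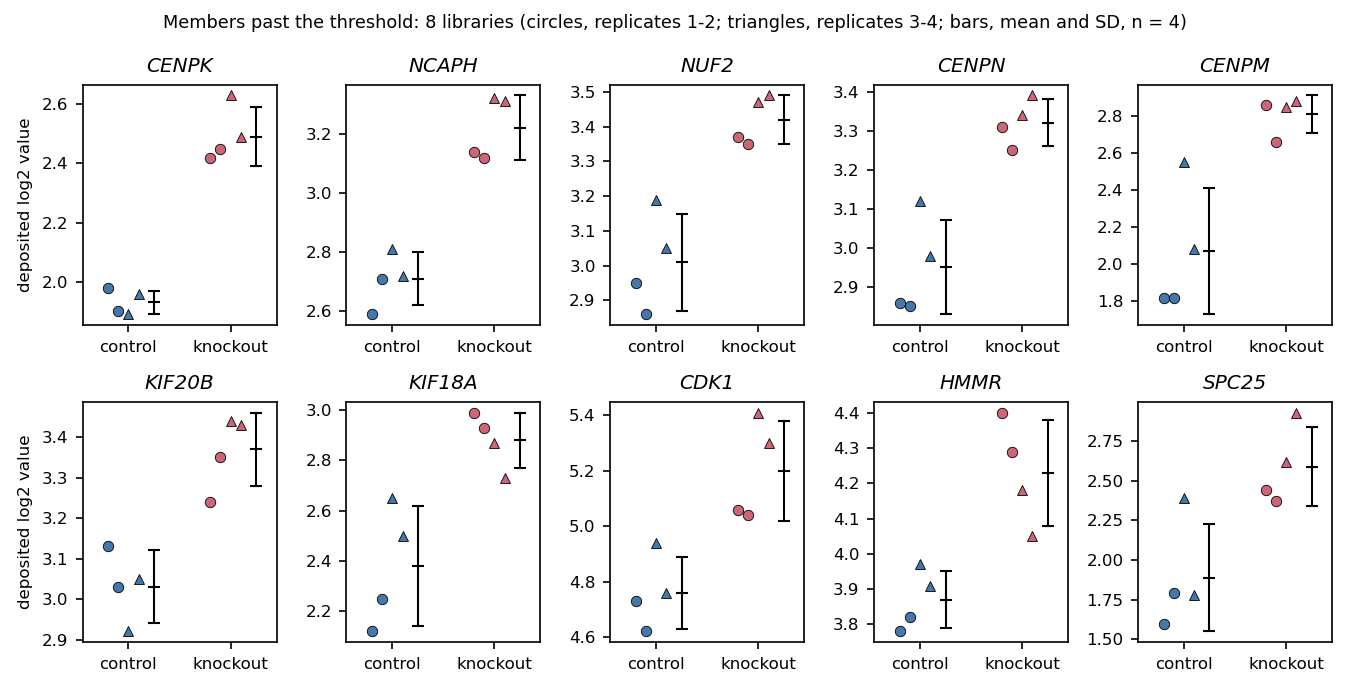
Deposited log2 values of the 10 called members in each library (circles, replicates 1 and 2; triangles, replicates 3 and 4; black bars, mean and SD, n = 4). In all panels but SPC25 the lowest knockout lies above the highest control, and in KIF18A and HMMR the circles are the higher knockouts.

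In the CDK1-cyclin switch 1 of 7 members rose (14.3%, background 7.02%) and none fell (background 6.10%). CDK1, the mitotic kinase itself, was 4.73, 4.62, 4.94 and 4.76 in the controls and 5.06, 5.04, 5.41 and 5.30 in the knockouts. The groups did not overlap, and the rise of 0.44 ± 0.11 (SE; limma adjusted p = 0.0325) corresponds to 1.36-fold. Its partners did not pass: the differences were 0.32 for CCNA2, 0.14 for CCNB1 and 0.28 for CCNB2 (limma adjusted p = 0.0760, 0.393 and 0.193). FOXM1, a transcription factor of mitotic genes, was 0.34 higher with an SE of 0.22. CDC25B, which switches CDK1 on, had the smallest difference of the group at 0.07 ± 0.12 (SE; limma adjusted p = 0.724), with 2.38, 2.41, 2.83 and 2.68 in the controls and 2.71, 2.81, 2.49 and 2.58 in the knockouts. The knockouts lay within the control range, and the related phosphatase CDC25C differed by 0.24 ± 0.14 (SE).

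Among the mitotic kinases and spindle assembly factors 1 of 7 rose (14.3%, background 7.02%) and none fell (background 6.10%). HMMR, a spindle-pole protein and hyaluronan receptor, was 3.78, 3.82, 3.97 and 3.91 in the controls and 4.40, 4.29, 4.18 and 4.05 in the knockouts, a rise of 0.36 ± 0.09 (SE; limma adjusted p = 0.0330). It did not pass with the replicate block (limma adjusted p = 0.0777). NUSAP1, which bundles spindle microtubules, was 4.53, 4.53, 4.72 and 4.66 in the controls and 4.81, 4.83, 5.37 and 5.33 in the knockouts. The groups were separate, yet the difference of 0.48 ± 0.14 (SE) missed the threshold (limma adjusted p = 0.0619, and 0.0388 with the replicate block). PLK1, a kinase of mitotic entry and spindle assembly, gave 4.01, 4.12, 4.35 and 4.08 in the controls and 4.00, 3.84, 4.20 and 4.25 in the knockouts. The groups overlapped, with a difference of -0.06 (95% interval -0.32 to 0.19). AURKA, TPX2, DLGAP5 and ASPM had differences of 0.08, 0.15, 0.02 and -0.03.

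None of the 9 genes of the spindle checkpoint and anaphase entry passed over 8 libraries, with PTTG1 higher and UBE2C lower at an unadjusted p under 0.05 in limma. ESPL1, the protease separase that cuts cohesin, was 1.33, 1.40, 1.89 and 1.61 in the controls and 1.64, 1.66, 2.11 and 2.10 in the knockouts (difference 0.32 ± 0.16, SE; limma adjusted p = 0.225). Its control library 3 lay among the knockouts. UBE2C, the ubiquitin-conjugating enzyme of the anaphase promoting complex, was 5.89, 6.11, 6.13 and 6.11 in the controls and 5.69, 5.69, 5.96 and 5.95 in the knockouts. It was the only member lower with a batch term for the sets of replicates (-0.24; limma adjusted p = 0.137 without the term and 0.0351 with it). The checkpoint proteins BUB1, BUB3, TTK, BUB1B and MAD2L1 differed by 0.08, -0.05, 0.17, 0.29 and 0.15, the anaphase activator CDC20 by 0.03, and PTTG1, the securin that restrains separase, by 0.24.

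Of the 4 chromosomal passenger genes, which correct faulty attachments, none passed, with CDCA8 and BIRC5 higher at an unadjusted p under 0.05 in limma. CDCA8 was 3.15, 3.16, 3.66 and 3.32 in the controls and 3.60, 3.50, 3.69 and 3.78 in the knockouts, a difference of 0.32 ± 0.12 (SE; limma adjusted p = 0.124). Only control library 3 reached the knockout range. The kinase AURKB and BIRC5, which encodes survivin, differed by 0.26 and 0.31. INCENP, the scaffold, was 2.41, 2.36, 2.84 and 2.62 in the controls and 2.35, 2.43, 3.00 and 3.04 in the knockouts, with knockout libraries 1 and 2 near the lowest controls and libraries 3 and 4 above all of them (difference 0.15, limma adjusted p = 0.642).

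Of 10 kinesin motors 2 rose (20%, background 7.02%) and none fell (background 6.10%). KIF18A, which shortens kinetochore microtubules and damps chromosome movement, was 2.12, 2.25, 2.65 and 2.50 in the controls and 2.99, 2.93, 2.87 and 2.73 in the knockouts, a rise of 0.50 ± 0.12 (SE; limma adjusted p = 0.0324). KIF20B, a motor of late cytokinesis, was 3.13, 3.03, 2.92 and 3.05 in the controls and 3.24, 3.35, 3.44 and 3.43 in the knockouts, a rise of 0.34 ± 0.07 (SE; limma adjusted p = 0.0243). Neither group overlapped the other in these genes, and neither gene passed with the replicate block (limma adjusted p = 0.0684 and 0.0682). KIF23 and KIF11, motors of the central spindle and of spindle bipolarity, differed by 0.50 ± 0.22 and 0.46 ± 0.21 (SE; limma adjusted p = 0.162 and 0.176). KIF14, a midbody motor, was lowest of the motors, with 2.53, 2.54, 2.91 and 2.79 in the controls and 2.27, 2.28, 2.77 and 2.80 in the knockouts (difference -0.16, limma adjusted p = 0.521). The other motors ranged from -0.10 for KIF4A to 0.37 for KIF20A.

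None of the 4 cytokinesis genes passed in limma, at an adjusted p or at an unadjusted p under 0.05. PRC1, which bundles the central spindle, was 4.72, 4.82, 5.04 and 4.93 in the controls and 4.90, 4.91, 5.71 and 5.74 in the knockouts, so that knockout libraries 3 and 4 alone stood above the controls (difference 0.44 ± 0.21, SE; limma adjusted p = 0.206). ECT2, the RhoA activator of the cleavage furrow, was 4.23, 4.21, 4.37 and 4.29 in the controls and 4.22, 4.24, 4.52 and 4.42 in the knockouts, a difference of 0.07 (95% interval -0.12 to 0.27). Of 5 condensation genes 1 rose (20%, background 7.02%) and none fell (background 6.10%). NCAPH, the kleisin subunit of condensin I, rose by 0.51 ± 0.08 (SE; limma adjusted p = 0.00665), from 2.59, 2.71, 2.81 and 2.72 to 3.14, 3.12, 3.32 and 3.31. The condensin ATPases did not pass: SMC4 differed by 0.08 and SMC2 by 0.06, with SMC2 at 3.33, 3.28, 3.62 and 3.49 in the controls and 3.29, 3.32, 3.64 and 3.73 in the knockouts. NCAPG, another condensin I subunit, differed by 0.10, and TOP2A, which untangles sister DNA, by 0.07.

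**Figure D4:**
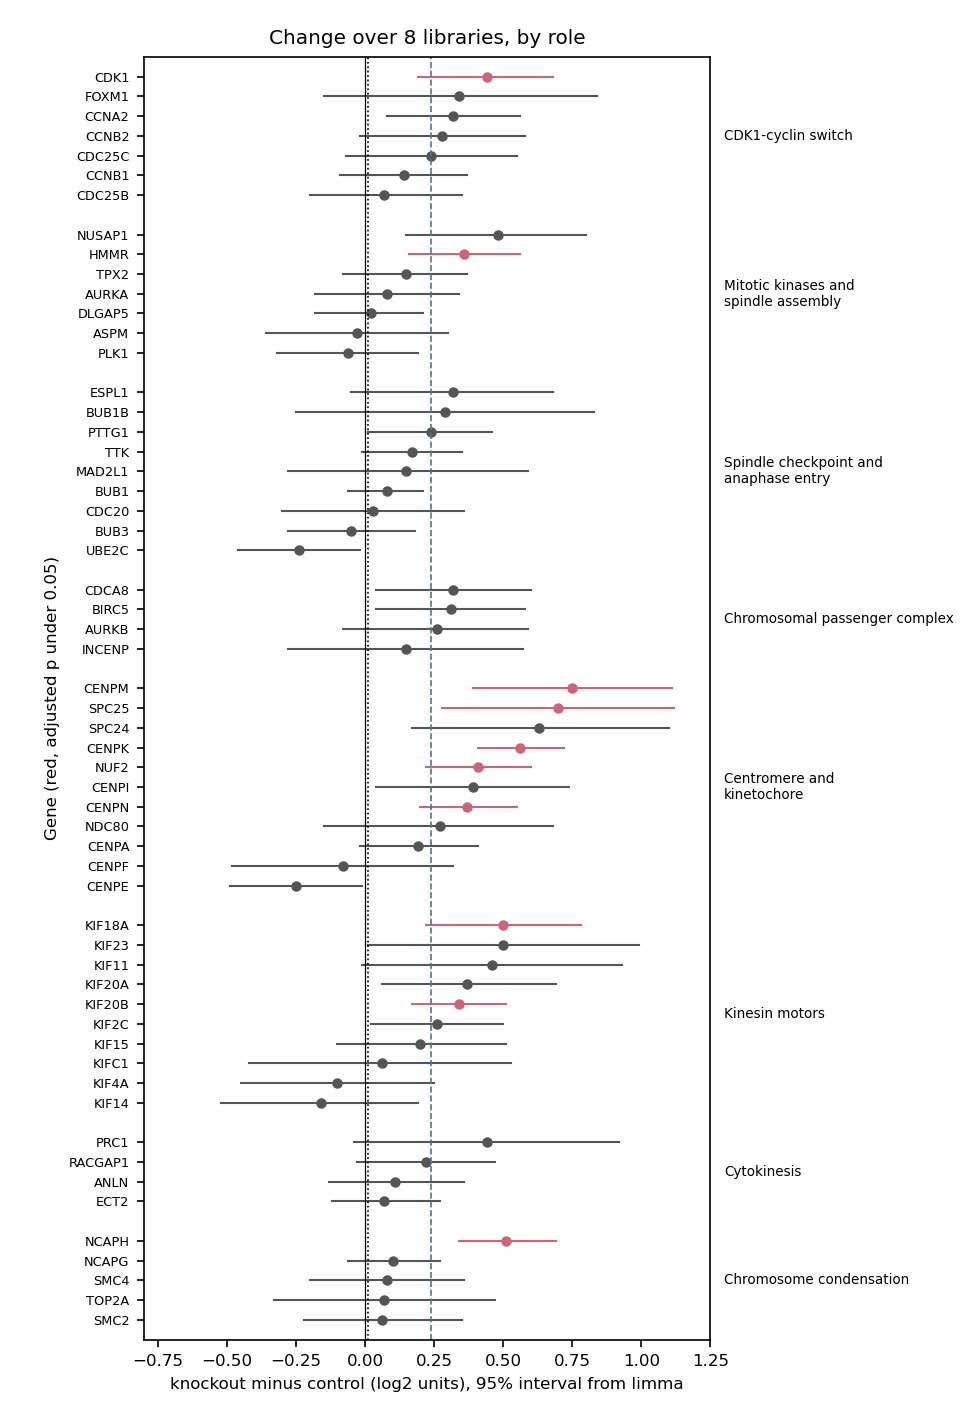
Difference of each member over 8 libraries (x axis, knockout minus control in log2 units, with the 95% interval from limma), grouped by role; red points passed an adjusted p of 0.05. The dashed line is the median of the 57 members, 0.24, and the dotted line that of all 9016 tested genes, 0.01.

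Taken apart, each set of replicates again had more members higher than lower. Within replicates 1 and 2, 35 members were higher and 7 lower (61.4% and 12.3%, backgrounds 33.0% and 26.6%). Within replicates 3 and 4, 21 were higher and 2 lower (36.8% and 3.51%, backgrounds 15.7% and 17.4%). Each of these fits rests on 2 libraries against 2. In both sets 15 members were called higher (26.3%, background 7.53%). Another 20 were called higher in replicates 1 and 2 alone and 6 in replicates 3 and 4 alone, against 2299 and 738 of the 9016 tested genes. The median member differed by 0.21 in the first set and by 0.18 in the second, against 0.03 and -0.00 for all tested genes. The test of the difference between the sets called 23 members, 10 with a higher and 13 with a lower knockout-minus-control value in replicates 3 and 4 (17.5% and 22.8%). These shares are near the backgrounds of 18.4% and 22.9%.

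KIF23, a central spindle motor, differed by 0.19 in replicates 1 and 2 and by 0.80 in replicates 3 and 4 (difference between the sets 0.61 ± 0.09, SE; limma adjusted p = 9.22e-04). Its values were 4.41, 4.47, 4.71 and 4.62 in the controls and 4.62, 4.64, 5.47 and 5.47 in the knockouts. PRC1 differed by 0.14 and 0.74, and KIF11 by 0.17 and 0.75. BUB1B, a checkpoint kinase, was 4.71, 4.73, 4.89 and 4.89 in the controls and 4.58, 4.66, 5.54 and 5.59 in the knockouts, which put its knockouts both below and above all controls. The remaining genes with a higher value in replicates 3 and 4 were NUSAP1, NDC80, CENPI, CCNB2, TOP2A and ASPM.

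The opposite pattern held for MAD2L1, a checkpoint protein that restrains CDC20. MAD2L1 was 3.02, 2.99, 3.14 and 3.04 in the controls and 3.61, 3.54, 2.93 and 2.73 in the knockouts, a difference of 0.57 in replicates 1 and 2 and of -0.26 in replicates 3 and 4 (difference between the sets -0.83; limma adjusted p = 6.51e-04). CDC20 was called in opposite directions, 0.38 and -0.32 (limma adjusted p = 0.00626 and 0.0316), as was TOP2A, -0.15 and 0.29 (limma adjusted p = 0.0344 and 0.0316). These were the only 2 of the 57 members with opposite calls, against 643 of the 9016 tested genes. The cyclins CCNA2 and CCNB1 differed by 0.57 and 0.35 in replicates 1 and 2, and by 0.07 and -0.07 in replicates 3 and 4. CDC25B, CDC25C, PTTG1, HMMR, KIF18A, KIF20A, KIF2C and CENPA also had the lower value in replicates 3 and 4. CENPE, the last of the 13, differed by 0.01 in replicates 1 and 2 (limma adjusted p = 0.902) and fell by 0.50 in replicates 3 and 4 (limma adjusted p = 0.00464). Of the 10 genes called over all libraries, 8 also passed in each set by limma: CENPK (0.49 and 0.63), NCAPH (0.48 and 0.55), NUF2 (0.45 and 0.36), CENPN (0.43 and 0.32), CENPM (0.94 and 0.55), SPC25 (0.71 and 0.69), KIF20B (0.22 and 0.45) and CDK1 (0.37 and 0.50). KIF18A and HMMR passed in replicates 1 and 2 only, and in both the difference between the sets passed its own test. The 10 genes were called over the same libraries that make up the sets, so passing in each set is not a separate check.

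**Figure D5:**
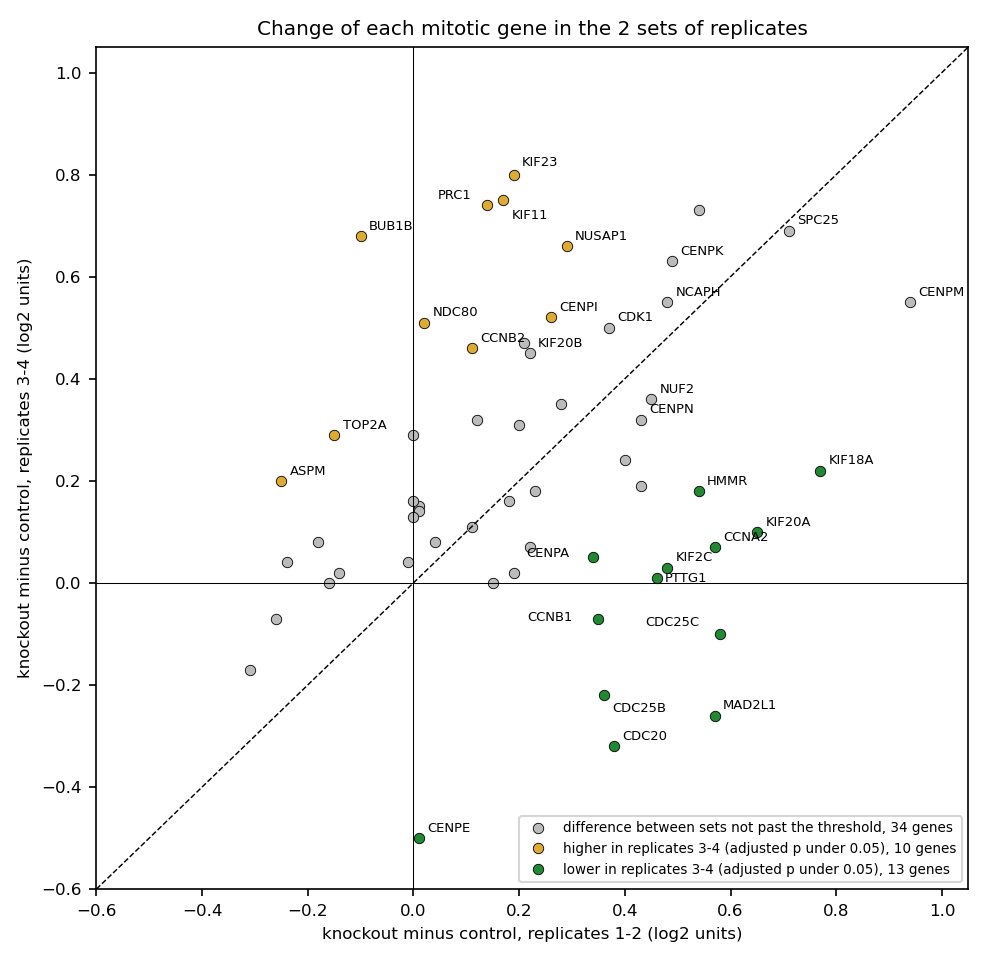
Each point is a member; the x axis is knockout minus control in replicates 1 and 2, the y axis the same in replicates 3 and 4 (log2 units), the dashed line marks equality, and colour shows the test of the difference between the sets. The 10 called genes above the line include KIF23, PRC1 and BUB1B, and the 13 called below it include MAD2L1, CDC20 and the CDC25 phosphatases.

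The controls differed among themselves in these genes. In 52 of 57 members (91.2%) control libraries 3 and 4 were both above control libraries 1 and 2, against 34.8% of tested genes, and in none were both below (23.7% of tested genes). The median difference between these control pairs was 0.22, about as large as the difference of 0.24 between the groups. Control library 3 lay above the control mean in 54 members, and it was the highest of all 8 libraries in 8 members. In the knockouts libraries 3 and 4 were both above 1 and 2 in 41 members (71.9%, against 41.0% of tested genes) and both below in 13 (22.8%, against 43.6%). With a batch term for the sets of replicates, which takes out the shift shared by controls and knockouts, 23 members were higher and 1 lower (backgrounds 13.8% and 11.4%), the 10 above included. With the replicate number as a block 10 were higher and none lower (backgrounds 5.68% and 4.57%), of which 7 were among the 10. What the sets share in the laboratory is not given in the labels.

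Other genes of the mitotic pathway, from lists written by function, were also more often higher than lower. Of 145 tested genes in 6 lists 23 rose (15.9%, background 7.02%) and 2 fell (background 6.10%), with a median difference of 0.15. With each knockout pair averaged none of the 145 passed in limma. In that fit 38 of them were at an unadjusted p under 0.05, against 1854 of all 9016 tested genes. Among 36 other centromere and kinetochore genes 9 rose (25.0%) and none fell. The largest change there was in CENPX, a histone-fold protein of the inner kinetochore, at 3.89, 3.94, 4.43 and 4.05 in the controls and 4.80, 4.74, 5.10 and 5.07 in the knockouts (0.85 ± 0.14, SE; limma adjusted p = 0.00815). Of 35 spindle, motor and centrosome genes 5 rose (14.3%) and none fell. Among those called, the largest change was in the abscission protein CEP55 (0.45, limma adjusted p = 0.0407), beside TROAP, STMN1, HAUS6 and HAUS1. HAUS6 and HAUS1 did not pass with the replicate block (limma adjusted p = 0.0790 and 0.0939). Of 20 further kinase, phosphatase and cyclin switch genes 5 rose (25.0%) and 1 fell, and the largest change was in PKMYT1 (0.69, limma adjusted p = 0.0336), a kinase that holds CDK1 inactive. The others that rose were CDC25A, PBK, MASTL and CDK2, and ENSA, a phosphatase inhibitor, fell by 0.38 (limma adjusted p = 0.0457). The anaphase promoting complex had 2 of 20 higher (10%), ANAPC13 at 0.35 (limma adjusted p = 0.0422) and CDC23 at 0.34 (limma adjusted p = 0.0394, and 0.0583 with the replicate block). Cohesin and condensin II had 1 higher (5.88%) and 1 lower of 17, with the cohesin acetyltransferase ESCO2 at 0.68 (limma adjusted p = 0.0289) and the cohesin regulator PDS5A at -0.37 (limma adjusted p = 0.0367). The called genes beyond the one with the largest change in each list were chosen for mention after their values were seen.

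The regulators of the class gave 1 call among 17 (5.88%), a share near the background of 7.02%. With the replicate number as a block 3 of the 17 were higher and none lower (background 5.68% and 4.57%). MYBL2, the gene of B-MYB, differed by 0.59 (limma adjusted p = 0.0623 without the block and 0.0284 with it). E2F8 differed by 1.09 (limma adjusted p = 0.0556 and 0.0215). LIN52, a MuvB subunit shared by the repressing and activating complexes at the CHR, was 0.58, 0.82, 0.94 and 0.91 in the controls and 1.47, 1.45, 1.46 and 1.34 in the knockouts, a rise of 0.62 ± 0.09 (SE; limma adjusted p = 0.00552). The filter asked for a mean of 1 or more over all 8 libraries. LIN52 passed it only through the knockouts, as its control mean was 0.81. S phase genes, listed for comparison, had 22 of 46 higher (47.8%, background 7.02%) and none lower (background 6.10%), with a median of 0.28. With each knockout pair averaged 3 of them passed (background 0.488% higher). The largest change of that list was in E2F2 (0.89, limma adjusted p = 0.00673). E2F2 also passed the filter only through the knockouts, with a control mean of 0.88. No test was made of the difference between the mitotic and the S phase list. Of 5 CDK inhibitors tested 1 fell (background 6.10%). CDKN1A, an inhibitor of cyclin-dependent kinases, was 4.99, 5.07, 5.10 and 5.05 in the controls and 3.99, 4.11, 4.23 and 4.15 in the knockouts. All knockouts lay below all controls, CDKN1A fell by 0.93 ± 0.07 (SE; limma adjusted p = 7.90e-04), and it passed with each knockout pair averaged (limma adjusted p = 0.0235) but not with pairs averaged in both groups (limma adjusted p = 0.512). The genes named above with the largest change in the other lists did not pass with each knockout pair averaged (limma adjusted p = 0.0605 for E2F2 to 0.169 for CEP55). Whether this fall bears on the mitotic genes was not tested.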

How the data were processed

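The authors deposited 1 table of log2 values per gene symbol and library, with equal quantiles in every library. Per the submitters' processing notes, bcl2fastq, Partek 7.0 and GRCh38 were used; their roles, the aligner, the counter and the unit before the logarithm are not given in the sources used here. Base 2 was inferred from the range. Blank cells were treated as missing. The 9016 genes without a blank and with a mean of 1 or more were tested with limma 3.58.1 in R 4.3.3 (lmFit, eBayes), knockout minus control, Benjamini-Hochberg adjustment over all of them, called under 0.05. The same fit was run within replicates 1 and 2 and within 3 and 4, and an interaction term tested the difference. The fit was checked on simulated data with independent noise per library, where 90.0% of 200 genes shifted by 1 log2 unit were called. Close pairs of libraries and smaller changes were not simulated.

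The titles number both groups 1 to 4. Deviations from the group means correlated across genes at 0.20 to 0.29 in all 4 same-numbered pairs, and at 0.11 to 0.31 between other numbers of the same set. These ranges overlap, so they do not show a pairing by number within a set. The main fit had no pairing term. The replicate block was an alternative fit, given where it changes the call of a gene named here. The labels name no separate cultures, so p-values measure only the spread between these libraries, which may be technical. Members and gene lists were chosen with earlier results of these data known. Values in every library are given for the highest and lowest member of each role and every called member; those of KIF23, BUB1B and MAD2L1 were added after their values were seen. In each related list the called gene with the largest change is named. Promoter windows came from RefSeq on GRCh38.p14.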

Additional observations from a re-analysis of the deposited data

Results flagged for a closer look

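The 22 members considered here are the highest and lowest of each role and every called member. In 6 of these 22 the change differed between the sets of replicates (limma interaction, adjusted p under 0.05). Among all tested genes 18.4% were higher and 22.9% lower in replicates 3 and 4. KIF23, BUB1B and MAD2L1, given in every library after their values were seen, also differed and are not among the 22. Taking the change in replicates 3 and 4 minus that in replicates 1 and 2, the difference was 0.60 for PRC1 and 0.37 for NUSAP1, and it was -0.58 for CDC25B, -0.55 for KIF18A, -0.51 for CENPE and -0.36 for HMMR. A single library stood apart from the other 3 of its group in 2 of 44 groups, where chance gives about 1 in 20: UBE2C in control library 1, at 5.89, and CENPM in knockout library 2, at 2.66. Causes were not tested.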

How the results depend on the processing

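The count of members higher over 8 libraries (10) was 23 with a batch term for the sets, 1 with knockout pairs averaged, 0 with pairs averaged in both groups, 6 with no filter, 5 with a mean of at least 3 (43 members tested) and 2 to 14 when each library was left out, with 10 under the replicate block, a pseudocount of 1, median centring, further quantile normalization and a variance trend. The count lower (0) was 1 with the batch term. With a mean of at least 3, CENPK, CENPM, SPC25, KIF18A and NCAPH fell below the filter and were not tested. The 5 called members that were still tested all stayed called. Averaging leaves fewer libraries and a filter changes the genes adjusted over. Otherwise the cause was not tested. The median of 0.24 ranged from 0.18 to 0.29 over all alternatives. In replicates 1 and 2 the count higher (35) was 34 with the replicate block, 24 with no filter and 27 with a mean of at least 3. The count lower (7) was 5, 2 and 5 in these settings. The count of members whose change differed between the sets (23) was 21 with the replicate block and 19 with no filter. It was 18 with a mean of at least 3 and 24 with median centring. In replicates 3 and 4 the count higher (21) was 12 with no filter and 11 to 25 when a library was left out, and the count lower (2) was 1 with no filter, 1 with a mean of at least 3 and 1 to 2 when a library was left out. Where a library was left out of a set, the lone library was assumed to vary like the others. Of the named members PLK1 ranged from -0.12 to 0.02 and SMC2 from -0.02 to 0.13 when a library was left out; no other of the 22 changed sign. NELL1 (-0.01) was -1.16 with its blank set to the lowest value of that library, 0.43 over same-numbered pairs (replicate block) and -0.54 to 0.52 when a library was left out. Read depth is unknown, so no counting error can be given.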

Other observations

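The CHR-type matches of the promoter windows were set beside the difference between the sets of replicates, a comparison made after the values were seen and not tested. Of the 10 members whose knockout-minus-control value was higher in replicates 3 and 4, 9 held a CHR-type match and CENPI did not. Of the 13 members whose value was lower there, 5 held one (HMMR, MAD2L1, CDC20, CENPA and KIF18A) and 8 did not (CCNA2, CCNB1, CDC25B, CDC25C, PTTG1, CENPE, KIF20A and KIF2C). Of the 25 other members with a window, 21 held one. Over the 35 members with a match the median difference was 0.15 in the first set and 0.20 in the second. Over the 13 without a match it was 0.48 and 0.07. A missing match says only that these letters are not in that window, so the 13 are not shown to lack the element.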
